A study of Mus musculus with 6 samples.

Results

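Transcripts of 8 genes of helper lymphocytes, *Gata3*, *Rora*, *Il5*, *Il13*, *Il17a*, *Il22*, *Areg* and *Il23r*, were followed across the deposited cell type labels and libraries of single-cell mRNA-seq of CT26 tumors. The genes were listed by name, as genes of type 2 and type 3 helper T cells and innate lymphoid cells (ILC), and are 8 of the 31053 genes in the count table. All 8 had at least 1 transcript. CT26 is a colorectal carcinoma line that grows in Balb/c mice, and CD45+ cells, the leukocytes, were enriched from dissociated tumors with beads. The sample labels list 6 tumors, taken 5 days after treatment: 2 received vehicle, and 2 groups of 2 received different doses of a bispecific antibody that blocks PD-1 and carries the ligand of the costimulatory receptor GITR. The labels give the high dose as 30 mg/kg, and the text of the study gives another value for it. That text also names the control of this experiment as isotype, where the labels have vehicle. The low dose is 10 mg/kg by the treatment protocol, but the treatment field has 30 mg/kg there too. The table holds 33961 cells in 4 libraries, named M1, M2, M5 and M6. These names match no sample label, so the libraries were not assigned to a treatment, no treatments were compared and no p-value is given.

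GATA3 is the transcription factor that directs type 2 helper T cells and group 2 ILC, and ROR-alpha, the product of *Rora*, is needed by group 2 ILC and acts in type 3 cells and regulatory T (Treg) cells. IL-5 recruits and sustains eosinophils, and IL-13 acts on epithelium, fibroblasts and macrophages. Mast cells and basophils are further known sources of IL-13. IL-17A and IL-22 are the type 3 cytokines of barrier tissues, made by helper T cells, group 3 ILC and some gamma delta T cells, and the IL-23 receptor keeps these cells active. Amphiregulin, the product of *Areg*, is a ligand of the epidermal growth factor receptor that is released by group 2 ILC and Treg cells and also by many epithelial and tumor cells.

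Transcripts were counted by unique molecular identifiers (UMIs). Levels are given as CPM, the UMIs of a gene per 1000000 UMIs of the cells of a label. Intervals are exact 95% intervals, Poisson for CPM and binomial for shares, and cover counting error only. Cells of M1 and M2 had median depths of 21800.5 and 20266 UMIs and those of M5 and M6 11399 and 12096, and 222 cells carried a cell barcode that another library also held. The label Stroma made up 15687 cells with a median depth of 40692 UMIs and only 7.47 CPM of *Ptprc*, the gene of CD45. It held 6300 of 10294 cells in M1 and 5103 of 8940 in M2, but 1946 of 7160 in M5 and 2338 of 7567 in M6. Within Stroma the median depths in M1, M2, M5 and M6 were 38910, 40222, 42315.5 and 43988.5 UMIs, so M1 and M2 were not deeper there. *Gata3* had 15468 UMIs in 7722 cells, *Rora* 37157 UMIs in 8077 cells and *Areg* 50364 UMIs in 8477 cells. The other 5 genes were rare, with 1202 UMIs in 159 cells for *Il13*, 980 in 115 cells for *Il17a*, 82 in 75 cells for *Il23r*, 63 in 12 cells for *Il5* and 28 in 11 cells for *Il22*. In the heat map of levels by label, *Gata3*, *Rora* and *Areg* reached most labels, whereas the rare genes stayed under 40 CPM everywhere.

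**Figure D1:**
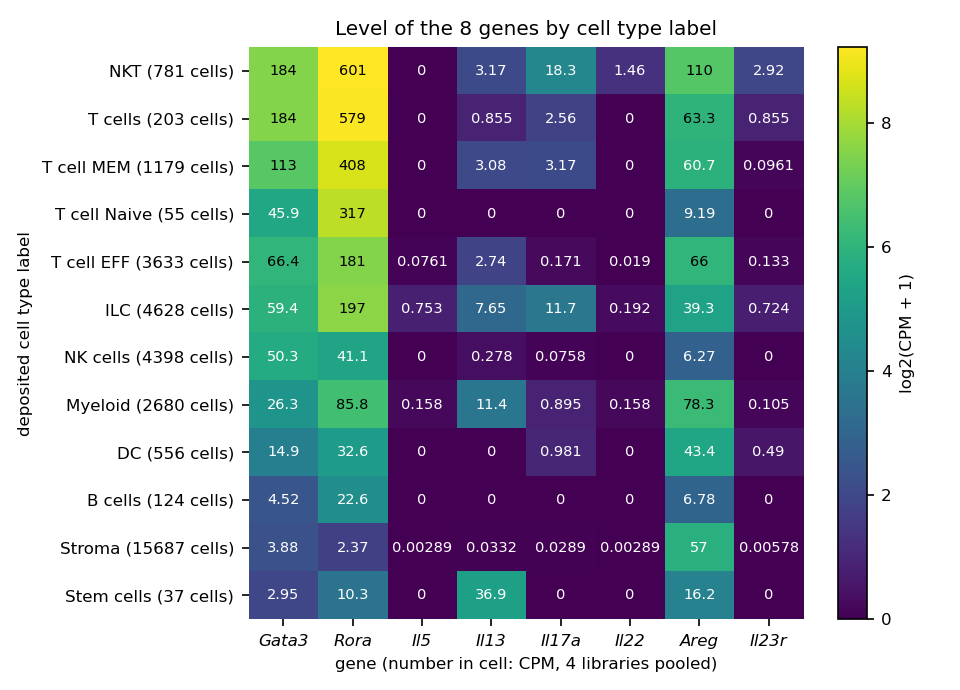
Level of each gene (columns) in each of the 12 deposited cell type labels (rows, with the number of cells), as CPM pooled over the 4 libraries, with the color giving log2(CPM + 1). *Rora* and *Gata3* were highest in cells labelled NKT, at 601 and 184 CPM, and the 36.9 CPM of *Il13* in Stem cells came from 1 cell.

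The promoters of 4 of the 5 rare genes, *Il5*, *Il13*, *Il17a* and *Il23r*, are shown for the letters that factors of the GATA and ROR families recognize, since *Gata3* and *Rora* were found in many of the cells that carried these transcripts. The windows are the 250 bases before the start site of each gene, from RefSeq on GRCm38.p6, written 5′ to 3′ on the strand of the gene. Capitals mark motifs of the GATA family (the letters AGATAA as well as AGATAG, and the forms TGATAA as well as TGATAG) in *Il5* and *Il13* and AGGTCA (the core that ROR factors bind) in *Il17a* and *Il23r*, searched on both strands, so that CTATCT and TGACCT are the same motifs read on the opposite strand. The *Il5* window is chr11:53720544-53720793 on the plus strand, *Il13* is chr11:53634703-53634952 on the minus strand, *Il17a* is chr1:20730655-20730904 on the plus strand and *Il23r* is chr6:67491856-67492105 on the minus strand.
Il5: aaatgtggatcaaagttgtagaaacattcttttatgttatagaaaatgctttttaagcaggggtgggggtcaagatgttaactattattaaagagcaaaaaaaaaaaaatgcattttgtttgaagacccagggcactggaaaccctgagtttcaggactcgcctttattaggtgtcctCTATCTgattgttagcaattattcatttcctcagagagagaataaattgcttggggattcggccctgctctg
Il13: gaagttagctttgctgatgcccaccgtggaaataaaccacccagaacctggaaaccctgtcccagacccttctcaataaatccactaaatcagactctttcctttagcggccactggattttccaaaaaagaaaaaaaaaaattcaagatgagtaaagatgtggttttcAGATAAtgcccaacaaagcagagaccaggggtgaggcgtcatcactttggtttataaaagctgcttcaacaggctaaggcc
Il17a: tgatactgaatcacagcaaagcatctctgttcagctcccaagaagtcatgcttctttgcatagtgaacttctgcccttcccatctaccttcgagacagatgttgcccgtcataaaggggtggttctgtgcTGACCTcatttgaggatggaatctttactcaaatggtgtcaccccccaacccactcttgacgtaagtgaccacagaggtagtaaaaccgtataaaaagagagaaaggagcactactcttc
Il23r: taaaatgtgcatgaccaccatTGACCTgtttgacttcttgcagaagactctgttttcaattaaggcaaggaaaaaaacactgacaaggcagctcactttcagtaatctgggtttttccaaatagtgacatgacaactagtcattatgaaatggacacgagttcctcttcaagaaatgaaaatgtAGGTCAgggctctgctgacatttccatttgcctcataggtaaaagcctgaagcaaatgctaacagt

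The GATA motif began 72 bases before the start site in *Il5* and 81 bases before it in *Il13*. AGGTCA began 120 bases before the start site in *Il17a*, and 229 and 66 bases before it in *Il23r*. *Il22* is not shown because RefSeq places its start site 22 bases after the GENCODE one. Measured from the RefSeq site, its GATA motifs began 229 and 4 bases before it, and its window had no AGGTCA, so these letters did not divide the type 2 from the type 3 cytokines. The RefSeq start of *Gata3* also differed from the GENCODE one, by 11434 bases, and those of the other 6 genes were the same in both. In windows that also took in the first 50 bases of the gene, 5 of the 8 genes (*Gata3*, *Rora*, *Il5*, *Il13* and *Il22*) held a GATA motif, against 29.8% of 32851 windows of all genes. AGGTCA was found in *Il17a* and *Il23r*, 2 of the 8, against 16.3% of all windows. The STAT motif TTCNNNGAA was in 0 of the 8 windows and in 8.30% of all windows. These matches describe letters only and no binding was measured.

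*Gata3* (chromosome 2, 9857078 to 9890034, GRCm38) was highest in cells labelled NKT among the 8 labels with at least 20 cells in every library, which are the labels ordered here. In the 4 libraries M1, M2, M5 and M6 it had 134, 213, 193 and 188 CPM there, and 184 CPM when pooled (interval 171 to 198). T cell MEM followed with 113 CPM (range 83.5 to 124 over the libraries, median 102), then T cell EFF with 66.4 (48.0 to 80.0) and ILC with 59.4 (42.6 to 74.6). NK cells had 50.3 CPM, Myeloid 26.3, DC 14.9 and Stroma 3.88. The library ranges of NKT, T cell MEM and T cell EFF did not overlap, whereas those of T cell EFF, ILC and NK cells overlapped from each to the next. The small label T cells, with 11 cells in M1 and 203 in all, had 184 CPM (107, 280, 215 and 141 in the libraries).

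*Rora* (chromosome 9, 68653786 to 69388246) showed a wider spread over the libraries. In NKT it had 389, 433, 679 and 700 CPM in M1, M2, M5 and M6, with a pooled level of 601 CPM (578 to 625). The small label T cells had 579 CPM. In T cell EFF the 4 values were 64.1, 78.4, 235 and 316 CPM, and in ILC 129, 114, 248 and 245 CPM. M5 and M6 were above M1 and M2 in NKT, T cell EFF and ILC, but not in the small label T cells, where M1 had the highest level from 11 cells. Cells of M5 and M6 were deeper than those of M1 and M2 in NKT and ILC, and in T cell EFF the depths did not follow this order. The median depths in M1, M2, M5 and M6 were 3588, 3734, 4407 and 4830 UMIs in NKT, 9148, 8543, 10595 and 10654 in ILC, and 10423, 9005, 10781 and 9636 in T cell EFF. Pooled levels of *Rora* were 408 CPM in T cell MEM, 197 in ILC, 181 in T cell EFF, 85.8 in Myeloid, 41.1 in NK cells and 2.37 in Stroma. Every neighboring pair in this order overlapped over the libraries except DC and Stroma.

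**Figure D2:**
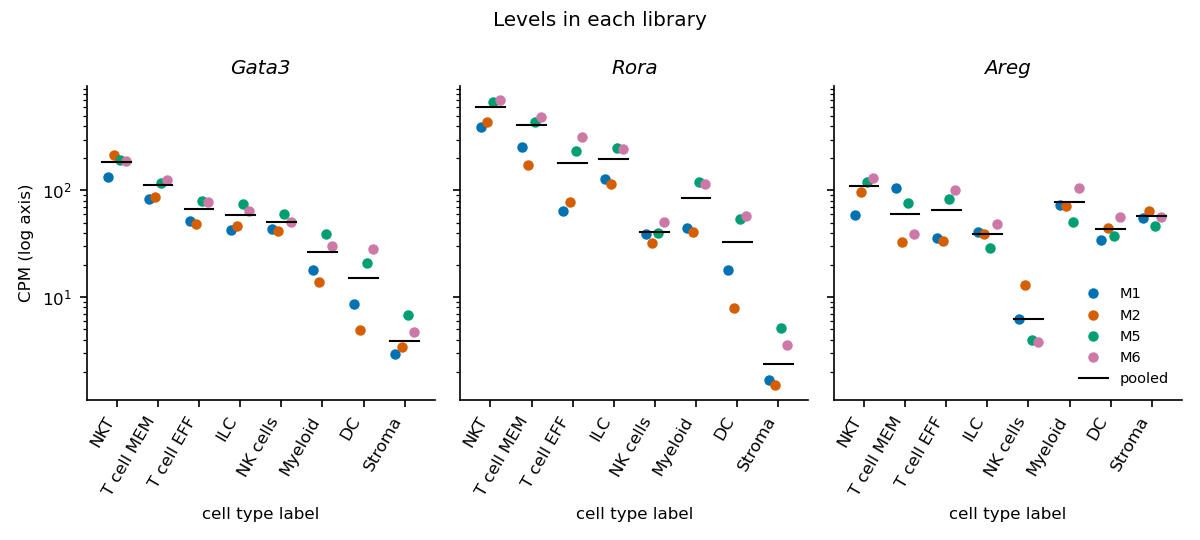
CPM (log axis) of *Gata3*, *Rora* and *Areg* in the 8 labels with at least 20 cells in every library, with 1 point for each library and a line for the pooled level. *Gata3* and *Rora* were highest in NKT in all 4 libraries, *Areg* in 3 of the 4, and the *Rora* points of M5 and M6 lay above those of M1 and M2 in every label.

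The same label was highest in all 4 libraries for *Gata3*, *Rora* and *Il23r*, in each case NKT. This is 3 of the 8 genes, close to the 36.6% of all genes with at least 20 UMIs for which a single label was highest in every library. For a stricter reading, a gene was called where 1 label was at least 2-fold over another in every library, after adding 1 CPM. In NKT over T cell EFF this held for *Gata3* and *Rora*, against 1.68% of all genes tested. On the log2 scale, *Gata3* was higher by 1.26 to 2.12 over the libraries and *Rora* by 1.15 to 2.58. In ILC over NK cells it held for *Rora* and *Areg*, against 1.47% of genes, with log2 ratios of 1.69 to 2.62 and 1.5 to 3.37. The label ILC was itself a mix of cells with NK and T cell transcripts, as given below. *Il17a* passed the limit of 20 UMIs through the higher label alone in both comparisons, with 75 UMIs in NKT and 9 in T cell EFF, and 795 in ILC and 3 in NK cells. Its ratios rest on the added 1 CPM, as do those of *Il5* and *Il23r* in ILC over NK cells, and they are given no weight. *Gata3* did not differ in this way between ILC and NK cells, with log2 ratios of −0.03 to 0.33 over the libraries. No member was called in T cell MEM over T cell EFF (0.411% of genes) or in Myeloid over DC (3.95% of genes), where *Il13* had 435 UMIs in Myeloid and 0 in DC.

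The label NKT held cells with different lineage transcripts, so all cells outside Stroma and Stem cells were also sorted by marker genes into classes. The rules were set with the values of these genes known, and they use no member gene. Of the 781 NKT cells, 251 carried *Foxp3*, the factor of Treg cells, with a CD3 chain of the T cell receptor complex and no *Cd8a* or *Cd8b1*, and 123 carried *Cd4* and a CD3 chain without *Foxp3*. Of the 4628 ILC cells, 2262 carried the NK markers *Ncr1* or *Klrb1c* and no CD3 chain. A further 486 were CD8+ CD3+, 220 gamma delta CD3+ (rule given with *Il17a*), 153 *Foxp3*+ CD3+ and 93 CD4+ CD3+. Of the 2680 Myeloid cells, 334 were CD8+ CD3+, 176 had NK markers without a CD3 chain, 92 were *Foxp3*+ CD3+ and 69 CD4+ CD3+. The levels of ILC and Myeloid are therefore those of mixed labels. Over all labels, *Gata3* had 145 CPM in the 872 *Foxp3*+ CD3+ cells (138 to 152) and 144 CPM in the 577 CD4+ CD3+ cells without *Foxp3* (134 to 154). By library (M1, M2, M5 and M6), it had 92.8, 168, 165 and 137 CPM in the *Foxp3*+ class and 76.7, 87.4, 180.2 and 156 CPM in the CD4+ class, so the *Foxp3*+ class was the higher in M1 and M2 and the lower in M5 and M6. *Gata3* had 52.3 CPM in 4756 CD8+ CD3+ cells, 49.1 in 363 gamma delta CD3+ cells and 48.2 in 5305 cells with NK markers, and in every library these were below the *Foxp3*+ and CD4+ classes. *Rora* had 415 CPM in the *Foxp3*+ class (248.6, 329, 499.7 and 396 by library), 454.5 in the CD4+ class (285, 281, 492 and 530.2), 238 in the gamma delta class (299.6, 155, 214 and 281), 151 in the CD8+ class and 112 in the NK class. The order of the first 3 differed between the libraries, with the gamma delta class highest in M1, the *Foxp3*+ class in M2 and M5 and the CD4+ class in M6. Within the CD8+ class *Rora* had 63.3, 74.7, 202 and 257.5 CPM in M1, M2, M5 and M6, so the libraries stood apart there too.

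Shares of cells were compared at equal depth. With each cell thinned to 2000 UMIs, 27.9% of NKT cells carried *Gata3* (24.6 to 31.4) and 56.2% carried *Rora* (52.5 to 59.9). In Stroma the shares were 0.844% and 0.505%. The share of *Rora* there is not a background level alone, since the few Stroma cells with high collagen described further on carried the gene, and it was 0.419% in the other Stroma cells. Whether that of *Gata3* is a background level was not tested. The cell with the most *Gata3* of all, 113 UMIs, was labelled Stroma, but 132 thinned Stroma cells carried the gene and 1 cell does not settle this. Without thinning the shares of *Gata3* and *Rora* were 42.1% and 71.1% in NKT at a median depth of 4287 UMIs, and 8.88% and 3.51% in Stroma. Among NKT cells, 48.9% of those with *Gata3* carried *Foxp3*, against 26.8% of those without, at median depths of 5111 and 3878 UMIs. *Gata3* and *Rora* were found together in 3722 cells, which is 48.2% of the cells with *Gata3* and 46.1% of the cells with *Rora*.

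*Il13* (chromosome 11, 53631324 to 53634702) was highest in Myeloid among the larger labels, at 11.4 CPM (10.4 to 12.6). The libraries differed widely, with 8.49, 0.812, 25.9 and 9.35 CPM in M1, M2, M5 and M6, and the pooled level fell to 6.92 without M5, below the 8.01 CPM of ILC without that library. ILC had 7.65 CPM (0.578, 1.51, 6.79 and 17.0), T cell EFF 2.74 CPM (0.246, 1.74, 0.227 and 9.99), NKT 3.17 CPM and NK cells 0.278 CPM. Without M6, the levels in ILC, T cell EFF and NK cells were 3.44, 0.638 and 0.105 CPM. No UMI was found in DC. For this and the other counts of 0, the level given as allowed is that of 3 counts, here 0.368 CPM, while the exact interval ends at 0.452 CPM. All of these ranges overlapped from Myeloid to T cell EFF, and the highest label was Myeloid in M1 and M5, T cell EFF in M2 and ILC in M6. Few cells held most of the transcripts: the 10 cells with the most *Il13* had 53.0% of its UMIs.

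Of the 159 cells with *Il13*, 63 were labelled Myeloid, 27 ILC, 25 T cell EFF, 23 Stroma, 8 T cell MEM, 6 NKT and 5 NK cells. The 63 Myeloid cells carried transcripts of mast cells and basophils. *Cpa3*, a mast cell protease, was found in 47 of them (74.6%, against 10.3% of Myeloid cells without *Il13*). *Ms4a2*, a chain of the high-affinity IgE receptor, was in 47, and *Il1rl1*, the IL-33 receptor, in 51. *Mcpt8*, a basophil protease, was in 18 (28.6% against 0.841%). *Il4*, another type 2 cytokine of this locus, was in 34 (54.0% against 1.83%). The macrophage gene *Lyz2* was in 20 (31.8%), against 85.9% of Myeloid cells without *Il13*, and these shares were taken at median depths of 4777 and 8087 UMIs. *Gata3* was carried by 13 of the 63 (20.6%, against 16.3%) and *Rora* by 16 (25.4%, against 25.3%), close to the rest of the label in both cases. That rest includes cells with T and NK cell transcripts. Over all labels, *Gata3* and *Rora* were in 1.81% and 4.99% of the cells with macrophage markers. In the cells with mast cell markers the shares were 4.38% and 6.25%, also without thinning.

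**Figure D3:**
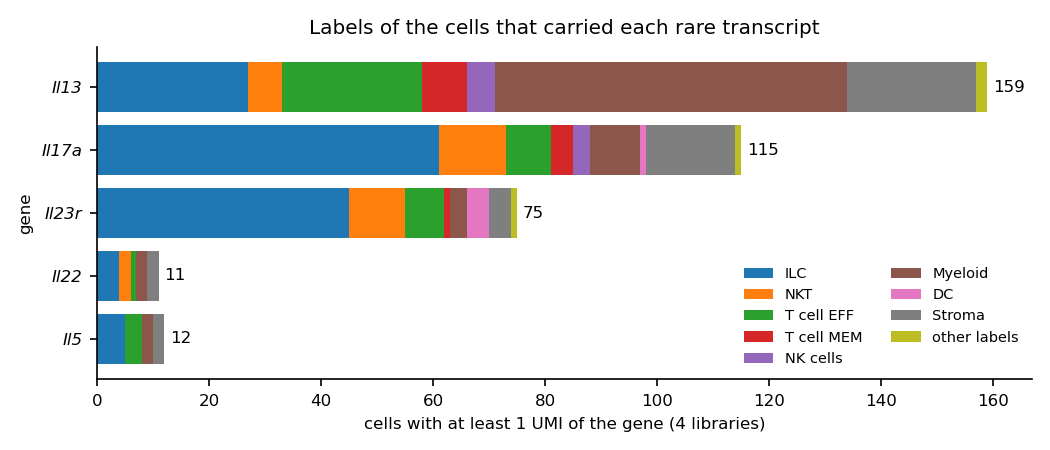
Number of cells with at least 1 UMI of *Il13*, *Il17a*, *Il23r*, *Il22* and *Il5* over the 4 libraries (horizontal axis), split by cell type label (colors). Myeloid was the largest part for *Il13* with 63 of 159 cells, and ILC for *Il17a* with 61 of 115 and for *Il23r* with 45 of 75.

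By class, 20 of the 160 cells with at least 3 mast cell markers carried *Il13*, with 36.0, 29.8, 139.5 and 33.3 CPM in M1, M2, M5 and M6. The pooled level was 58.0 CPM (43.3 to 76.1), and 33.4 without M5. In the 18 cells with *Mcpt8* and at least 3 basophil markers, 8 carried *Il13* and the level was 681 CPM (534 to 856), or 450 without the cell with the most UMIs. *Il4* was also highest in that class, at 783 CPM, and had 143 CPM there without M6 and 1246 without M1. The 662 cells with macrophage markers had 2 UMIs of *Il13* in 2 cells, or 0.327 CPM (0.0396 to 1.18). Myeloid was the label of 148 of the mast cell marker cells and 17 of the basophil marker cells. The mast cell and basophil classes held only 4.33% and 6.07% of all *Il13* UMIs. Cells that fell in no class held 32.95%, the NK class 13.9% and the CD8+ class 12.5%. The NK class had 167 UMIs in 7 cells, 86 of them in M5 and 80 in M6.

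The 4 cells with the most *Il13* carried *Il4* and *Mcpt8* under different labels. In M5, a Myeloid cell held 123 UMIs of *Il13* with 179 of *Il4* and 10 of *Mcpt8*. A cell labelled ILC in M6 held 120 of *Il13* with 103 of *Il4* and 4 of *Mcpt8*. A cell labelled ILC in M5 held 84, 106 and 3, and another in M6 held 78, 269 and 11. The next cell, labelled Myeloid in M6, had 50 UMIs of *Il13*, 7 of *Cpa3*, 1 of *Mcpt8* and 0 of *Il4*. Each of these 5 cells therefore carried *Mcpt8*, and the 4 with the most *Il13* also carried *Il4*, although 3 of them were labelled ILC. Of the 27 ILC cells with *Il13*, 9 carried *Il4* and 7 carried *Mcpt8*. The ILC cells with 84 and 78 UMIs of *Il13* carried 4 and 1 UMIs of *Ncr1*, with 0 of *Cd3e* and *Cd3g*. *Ncr1* is a marker of the NK class, so the share of that class may rest on them and does not show *Il13* in NK cells. The ILC cell with 120 UMIs carried 2 of *Cd3e*, and the basophil rule left out cells with a CD3 chain.

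Another part of the *Il13* transcripts was in T cells. All 25 T cell EFF cells with *Il13* carried *Cd3e*, 21 carried *Gata3* (84.0%, against 45.1% of the label without *Il13*) and 22 carried *Rora* (88.0% against 47.2%). *Cd4* was in 12 of the 25 (48.0% against 10.4%) and *Cd8a* in 18 (72% against 90.1%). These cells were deeper than the rest of their label, with medians of 20952 and 10011.5 UMIs. Of the 25, 18 were from M6, where 67.3% of all T cell EFF cells carried *Rora* and 50% carried *Gata3*. In M1 and M2, 33.6% and 30.1% of the label carried *Rora*, so the shares above also differ in their libraries. In the CD4+ CD3+ class without *Foxp3*, 16 of 577 cells carried *Il13* (2.77%, interval 1.59 to 4.46), at 2.04, 0, 7.21 and 23.7 CPM in M1, M2, M5 and M6. Without M6 the level of this class was 4.52 CPM, against 12.8 CPM with all libraries. In the *Foxp3*+ class 6 of 872 cells carried *Il13* (0.688%, 0.253 to 1.49). In the CD8+ class 24 of 4756 cells did (0.505%, 0.324 to 0.750), with 150 UMIs, of which 109 were in M6.

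*Il5* (chromosome 11, 53720794 to 53725106), which lies in the same cytokine cluster as *Il13*, was found in 12 cells. Of its 63 UMIs, 51 were in 5 cells labelled ILC, with 3, 7, 1 and 40 UMIs in M1, M2, M5 and M6, or 0.753 CPM (0.561 to 0.990). A single cell in M6 held 40 of them, 63.5% of all *Il5* UMIs, and the ILC level without M6 was 0.235 CPM, against 0.241 CPM in Myeloid. NK cells, NKT, T cell MEM and DC had 0 UMIs, which allows up to 0.0758, 0.731, 0.288 and 0.368 CPM. The single cell had 6819 UMIs in all and carried 9 UMIs of *Il13*, 14 of *Areg*, 4 of *Gata3*, 23 of *Rora*, 5 of *Il1rl1* and 1 of *Il7r*, with 0 of *Cd3e* and *Cd3g*. The cell next in order, an ILC cell in M2, had 7 UMIs of *Il5*, 37 of *Areg*, 11 of *Gata3*, 8 of *Rora* and 3 of *Il1rl1*, again without *Cd3e* or *Cd3g*. *Gata3*, *Rora*, *Il1rl1* and *Il7r* without CD3 chains are the genes by which group 2 ILC are usually known. The third cell in order was labelled Myeloid, in M5, with 5 UMIs of *Il5*, 9 of *Il13*, 1 of *Gata3* and 0 of *Rora*. It also held 39 UMIs of the mast cell gene *Cpa3*, 4 of *Il1rl1* and 1 of *Il7r*.

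All 5 ILC cells with *Il5* carried *Gata3*, *Rora*, *Areg*, *Il7r* and *Kit*. Among ILC cells without *Il5* the shares were 41.8%, 55.8%, 9.24%, 26.9% and 29.7%. *Calca*, a neuropeptide gene that group 2 ILC also use, was in 4 of the 5 (6.34% of the rest). *Cd3g* was in 2 of the 5 and *Il1rl1* in 3, so not all of these cells had the full set. Over all labels, 10 of the 12 cells with *Il5* carried *Gata3*, 10 carried *Il7r*, 8 carried *Areg* and 7 carried *Il1rl1*. A class of cells with *Il1rl1* and *Il7r* but no CD3 chain and no *Ncr1* or *Klrb1c* had 93 cells, of which 2 carried *Il5* and 3 carried *Il13*. Of its 146 *Il13* UMIs, 123 were in the Myeloid cell of M5 described with *Il4* and *Mcpt8*. The class held 74.6% of all *Il5* UMIs, at 27.1 CPM, against 4.05 CPM without the single M6 cell and 4.70 without M6. Its labels were mixed, with 47 Myeloid, 29 DC and 14 ILC, and only 17 of the 93 carried *Gata3*.

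*Il17a* (chromosome 1, 20730905 to 20734496) was highest in NKT, at 18.3 CPM (14.4 to 22.9), and next in ILC, at 11.7 CPM (10.9 to 12.6). The NKT values were 10.1, 61.6, 12.8 and 9.06 CPM in M1, M2, M5 and M6, and the ILC values were 29.9, 9.31, 1.31 and 9.44 CPM. Without M2 the order turned, with 10.6 CPM in NKT and 12.2 CPM in ILC, and without M1 the ILC level was 6.31 CPM. These ranges overlapped, and ILC was the higher label in M1 and M6. T cell MEM had 3.17 CPM, T cell EFF 0.171, NK cells 0.0758 and Stroma 0.0289. T cell MEM had 0, 1.81, 0.694 and 7.21 CPM in M1, M2, M5 and M6, and 0.767 CPM without M6. T cell EFF and Stroma had 0.0743 and 0.0188 without M1. Since NKT was small, ILC held most of the transcripts, with 81.1% of the UMIs and 61 of the 115 cells.

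The ILC cells with *Il17a* were marked by transcripts of gamma delta T cells. *Tcrg-C1*, a constant segment of the T cell receptor gamma chain, was in 51 of the 61 (83.6%, against 2.76% of ILC cells without *Il17a*). *Trdv4*, a variable segment of the delta chain, was in 32 (52.5% against 9.04%), and *Cd3g* was in 58 (95.1% against 40.2%). *Cd163l1*, a scavenger receptor of IL-17-producing gamma delta T cells, was in 48 (78.7% against 1.75%), and *Blk*, a kinase needed by these cells, in 30 (49.2% against 0.920%). *Rora* was in 60 of the 61 (98.4% against 55.2%) and *Gata3* in 22 (36.1% against 41.9%). *Ncr1*, which encodes a receptor of NK cells and of some ILC, was in 21 (34.4% against 84.8%). The cells with *Il17a* had the lower median depth, 5858 against 9795 UMIs.

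**Figure D4:**
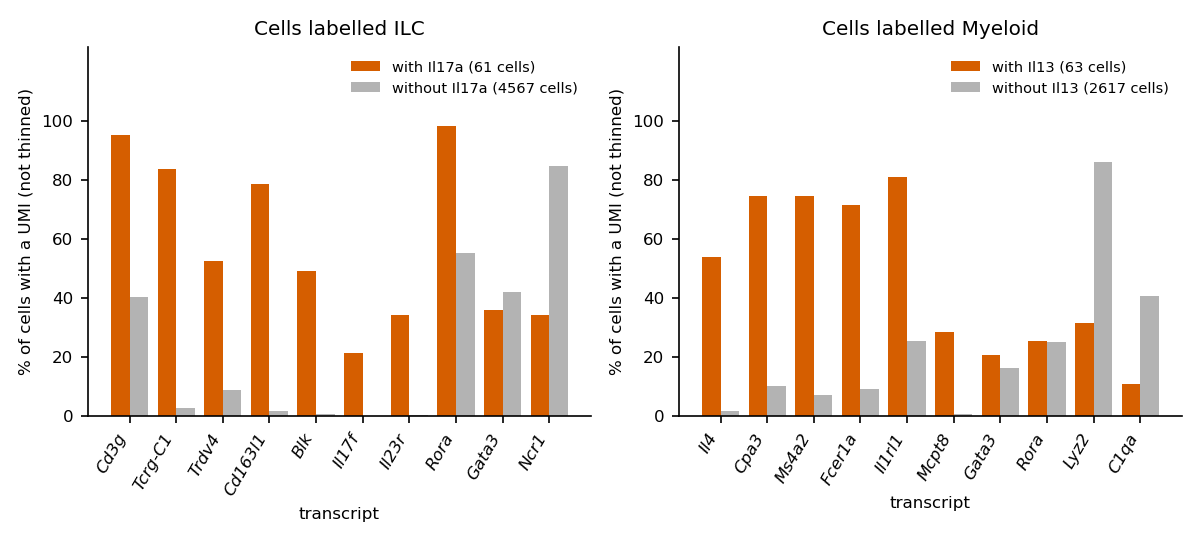
Share of cells (vertical axis, %, not thinned) with at least 1 UMI of each transcript (horizontal axis) among cells with (orange) and without (gray) *Il17a* in the label ILC, and with and without *Il13* in the label Myeloid. *Tcrg-C1* was in 83.6% of the ILC cells with *Il17a* against 2.76% without, and *Il4* in 54.0% of the Myeloid cells with *Il13* against 1.83% without.

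In the class of 363 CD3+ cells with *Tcrg-C1*, *Trdv4* or *Tcrg-V6* and no *Cd4*, *Cd8a*, *Cd8b1* or *Foxp3*, 50 cells carried *Il17a* (13.8%, interval 10.4 to 17.8) and held 68.6% of all its UMIs. Of this class, 220 cells were labelled ILC, 86 NK cells and 33 NKT. Its rule did not leave out cells with *Ncr1* or *Klrb1c*, and at least 1 UMI of each kind of gene was enough. NK cells may thus be in the class, and the name gamma delta stands for the rule alone. The level of *Il17a* was 399, 82.9, 20.5 and 68.0 CPM in M1, M2, M5 and M6, with 77, 87, 78 and 121 cells, and 127 CPM when pooled (117 to 137). M1 was the highest library and without it the pooled level was 59.6 CPM. In comparison, *Il17a* had 3.47 CPM in the *Foxp3*+ class, 1.88 in the CD4+ class without *Foxp3*, 1.60 in the CD8+ class and 0.0566 in the NK class. A single library set the first 2 of these, which were 1.27 CPM without M2 and 0.820 CPM without M1, and the NK class had 3 UMIs in all. At 2000 UMIs per cell, 10.2% of the gamma delta class carried *Il17a* (7.32 to 13.9), against 0.129% of the CD8+ class. In Stroma 16 of 15687 cells carried *Il17a* without thinning (0.102%, interval 0.0583 to 0.166), at a median depth of 40692 UMIs, and none of the 15642 thinned cells did in the draw used.

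*Il23r* (chromosome 6, 67422932 to 67491855) had at most 2 UMIs in any cell. Its level in NKT was 2.88, 3.24, 2.40 and 3.24 CPM in M1, M2, M5 and M6 from 2, 2, 3 and 5 UMIs, and 2.92 CPM pooled (1.51 to 5.11). These counts are too small to tell how even the level was over the libraries. ILC had 0.724 CPM (0.535 to 0.957) from 49 UMIs in 45 cells, and the library ranges of NKT and ILC did not overlap. The 4398 NK cells had 0 UMIs, which allows up to 0.0758 CPM. Of the 75 cells with *Il23r*, 45 carried *Tcrg-C1* (60%, against 0.998% of all other cells), 44 carried *Cd163l1*, 64 carried *Rora* and 27 carried *Il17a*. In the gamma delta class 32 cells had *Il23r* (8.82%, interval 6.11 to 12.2), at 9.51, 4.48, 3.41 and 8.65 CPM in M1, M2, M5 and M6. The class held 43.5% of all cells with *Il17a* and 42.7% of those with *Il23r*. Both genes were found together in 27 cells, 23.5% of those with *Il17a* and 36.0% of those with *Il23r*.

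*Il22* (chromosome 10, 118204942 to 118210047) was the rarest gene, with 2, 16, 3 and 7 UMIs in M1, M2, M5 and M6. The annotation has a near-identical copy, *Iltifb*, at 118289629 to 118295038 on the same chromosome, so reads shared by both genes may have been left uncounted and the *Il22* counts are uncertain. Its highest label was NKT at 1.46 CPM, but all 6 UMIs there came from 2 cells of M2, and without M2 the level was 0. Of the 11 cells with *Il22*, 9 carried *Rora*, 9 carried *Cd3g*, 5 carried *Tcrg-C1* and 3 carried *Il17a*. The cell with the most, an ILC cell of M2, had 8 UMIs of *Il22* and 48 of *Il17a*, with 9 of *Cd3g* and 4 of *Tcrg-C1*. A Myeloid cell of M6 with 5 UMIs also carried 592 UMIs of *Lyz2* and 19 of *Cd3g*.

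*Areg* (chromosome 5, 91139599 to 91148432) was spread over most labels. NKT was highest at 110 CPM (99.9 to 120), with 59.1, 95.7, 121 and 130 CPM in M1, M2, M5 and M6. Myeloid had 78.3 CPM, T cell EFF 66.0, T cell MEM 60.7, Stroma 57.0, DC 43.4 and ILC 39.3, and each neighboring pair in this order overlapped over the libraries. T cell MEM was the highest label in M1, at 106 CPM. NK cells, at 6.27 CPM (3.83 to 13.1), were below all of these without overlap. After thinning, 9.54% of NKT cells (7.48 to 11.9), 7.43% of Stroma cells (7.02 to 7.85) and 0.948% of NK cells (0.678 to 1.29) carried *Areg*.

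Stroma held 78.4% of all *Areg* UMIs because of its size and depth, with 55.5, 63.7, 46.8 and 55.9 CPM in M1, M2, M5 and M6. Its cells were divided at 3000 CPM of *Col3a1*, a fibrillar collagen of fibroblasts, a limit set after the distribution was seen. The 119 cells at or above it had 3.96 CPM of *Areg* (2.26 to 6.43), and the 15568 cells under it had 57.3 CPM (56.8 to 57.9). The 119 cells had 16 UMIs of *Areg*, at 1.48, 3.37, 0.981 and 12.9 CPM in M1, M2, M5 and M6. *Rora* went the other way, with 104 CPM (94.0 to 114) and 1.78 CPM (1.68 to 1.88). In the collagen-high cells *Rora* was even over the libraries, at 105, 99.9, 112 and 95.4 CPM. *Krt18*, a keratin of epithelial cells, had 0.743 CPM from 3 UMIs in the collagen-high cells and 28.4 CPM in the other Stroma cells.

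In the label NKT, cells with *Areg* carried Treg transcripts more often than the other cells. *Foxp3* was in 64 of the 102 cells with *Areg* (62.7%, against 32.1% of the label without *Areg*) and *Cd4* in 60 (58.8% against 36.2%), at similar median depths of 4424 and 4254 UMIs. *Areg* was not limited to such cells. In the *Foxp3*+ CD3+ class 202 of 872 cells carried *Areg* (23.2%, interval 20.4 to 26.1), with 35.5, 263, 88.8 and 88.0 CPM in M1, M2, M5 and M6 and 95.6 CPM pooled. The gamma delta class had 127 CPM (158, 169, 46.9 and 130), and in the CD8+ class 583 cells carried *Areg*. At 2000 UMIs per cell, the shares were 12.8% in the *Foxp3*+ class (10.6 to 15.2), 12.6% in the *Il1rl1*+ *Il7r*+ class (6.48 to 21.5), 9.97% in the gamma delta class (7.08 to 13.5), 6.60% in the CD4+ class without *Foxp3* (4.69 to 8.98), 5.18% in the CD8+ class (4.56 to 5.86) and 1.18% in the NK class (0.902 to 1.51). The interval of the *Foxp3*+ class overlapped those of the *Il1rl1*+ *Il7r*+ and gamma delta classes and none of the other 3. These intervals pool the cells of the libraries and do not cover the spread between libraries. The CD4+ class had 58.3, 61.4, 62.65 and 40.2 CPM in M1, M2, M5 and M6, above the *Foxp3*+ class in M1 and below it in M2, M5 and M6. Without thinning, 20.2% of its cells carried *Areg* in M5, against 19.65% of the *Foxp3*+ class, which had the higher share in M1, M2 and M6. *Areg* was also in 51 of the 115 cells with *Il17a* (44.3%), in 26 of the 75 with *Il23r* (34.7%) and in 46 of the 159 with *Il13* (28.9%), against 24.9% of the cells without each of these genes, a set that takes in the deeper Stroma cells.

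**Figure D5:**
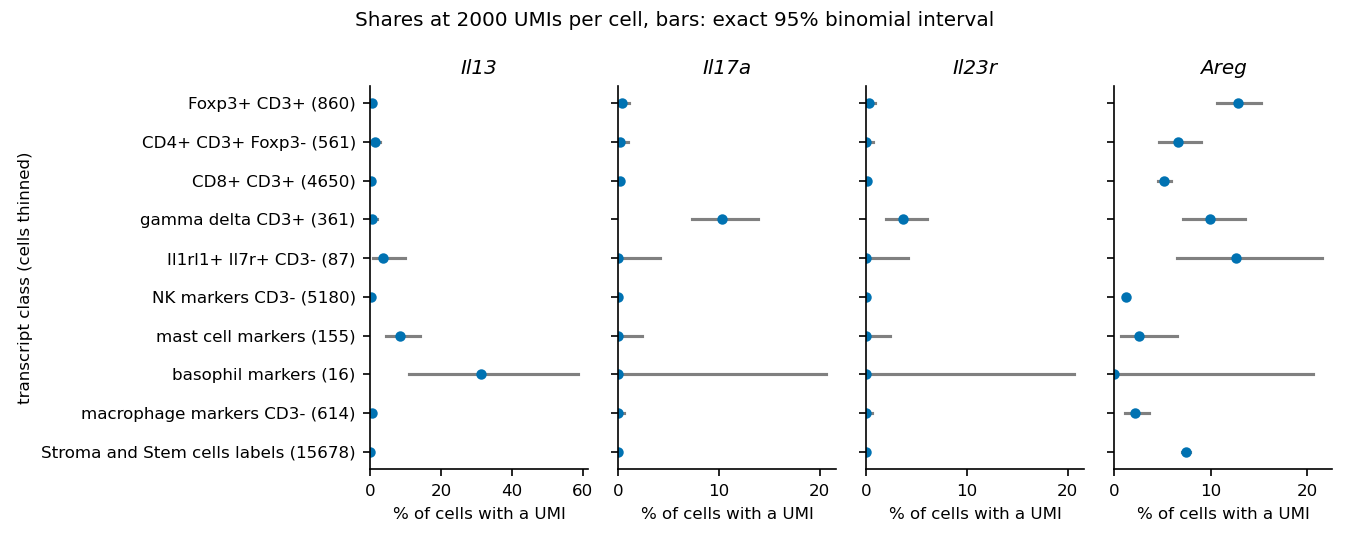
Share of cells with a UMI (horizontal axes, %, each cell thinned to 2000 UMIs) of *Il13*, *Il17a*, *Il23r* and *Areg* in transcript classes (rows, with the number of cells), with exact 95% binomial intervals as bars and separate scales. Cells that fell in no class are not drawn. *Il17a* and *Il23r* were highest in the gamma delta class, at 10.2% and 3.6%, *Il13* in the 16 basophil marker cells at 31.2%, and *Areg* was found in T cell and Stroma classes alike.

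The other genes of each program were read from lists chosen with earlier results known. Of 13 type 2 genes, 11 had at least 20 UMIs. NKT was the highest label for 5 of the 11 (*Crlf2*, *Calca*, *Bcl11b*, *Ccr4* and *Ccr8*), Myeloid for 3 (*Il4*, *Hpgds* and *Pparg*), and DC, NK cells and Stroma for 1 each. Over all 18148 genes with at least 20 UMIs, NKT was highest for 19.6%, Myeloid for 11.8%, DC for 12.9% and Stroma for 30.6%. *Calca* and *Il4* kept this label in only 1 of the 4 libraries and *Hpgds* in 2, and *Calca* had 14.1 CPM in NKT and 13.6 in ILC. *Bcl11b*, a T lineage factor, had 172 CPM in NKT, and the chemokine receptor genes *Ccr4* and *Ccr8* had 22.6 and 10.5 CPM. *Il1rl1* was highest in Stroma at 273 CPM, followed by NKT at 114 CPM. Of 14 type 3 genes, *Il26* was not in the count table. Of the other 13, 12 had at least 20 UMIs, and the highest label was Stroma for 4 (*Il1r1*, *Sox13*, *Tmem176a* and *Tmem176b*), DC for 3 (*Il17f*, *Ccr6* and *Ahr*), NKT for 3 (*Maf*, *Blk* and *Cd163l1*) and Myeloid and NK cells for 1 each. All 16 UMIs of *Il17f* in DC were from M1. By class, the gamma delta class was highest for 4 of these 12, Stroma and Stem cells for 3 and 5 other classes for 1 each, while over all genes with at least 20 UMIs the first 2 were highest for 5.76% and 25.1%. The 4 genes were *Cd163l1* at 121 CPM, *Blk* at 19.4, *Il17f* at 10.8 (6.12 without M1) and *Sox13* at 3.02. Of the 11 type 2 genes, the *Foxp3*+ class was highest for 4 (9.8% of all genes), the *Il1rl1*+ *Il7r*+ and mast cell classes for 2 each (7.84% and 6.71%) and the gamma delta class for none. *Il17f*, the close relative of *Il17a* on chromosome 1, was in 23 of the 115 cells with *Il17a* (20%, against 0.239% of the others). *Maf*, a factor of type 3 and Treg cells, was highest in NKT at 318 CPM. *Il23a*, which encodes the IL-23-specific chain of the ligand of the IL-23 receptor, was highest in Myeloid at 8.58 CPM.

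Receptor genes of the member cytokines were spread over the labels. Of 11 receptor genes, 10 had at least 20 UMIs, of which 4 were highest in DC, 3 in Myeloid, 2 in Stroma and 1 in NKT. These labels were highest for 12.9%, 11.8%, 30.6% and 19.6% of all genes with at least 20 UMIs. Of the 4 in DC, *Csf2rb* was highest there in all 4 libraries, *Il5ra* in 3, and *Egfr* and *Il22ra2* in 2. *Csf2rb*, the shared chain of the IL-5 receptor, had 349 CPM in DC and 207 in Myeloid, but *Il5ra*, the chain specific to IL-5, had 41 UMIs in all. *Il13ra1* was highest in Myeloid at 44.9 CPM and *Il4ra*, its partner, in NKT at 135 CPM. *Il17ra* was highest in Myeloid at 43.6 CPM and *Il17rc*, its partner, in Stroma at 25.4 CPM. *Il22ra1*, which epithelial cells use to bind IL-22, had 2 UMIs. *Egfr*, the receptor of amphiregulin, had 716 UMIs in 339 cells and had 2.33 CPM in DC (1.45 without M6).

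The genes whose levels were most like those of each member were taken over the 38 combinations of label and library with at least 20 cells, among 14210 genes, by Pearson's r of log2(CPM + 1). These points share libraries and labels, so the values are a description. For *Gata3* they were *Dgat1* (r = 0.962), *Ikzf2* (0.950) and *Slc22a15* (0.944), and for *Rora* *Camk4* (0.965), *Lat* (0.961) and *Ikzf2* (0.948). *Ikzf2* encodes Helios, a factor of Treg cells. For *Il13* the first was *Il4* (0.744), followed by *Myo1d* (0.740) and *Csf3r* (0.729). For *Il17a* they were *Tcrg-C4* (0.838), *Cd163l1* (0.820) and *Tcrg-C1* (0.768), of which the first and last are constant segments of the gamma chain. For *Areg* they were *Bmpr2* (0.805), *Ly6a* (0.790) and *Nrp1* (0.788). *Il5*, *Il22* and *Il23r* had fewer than 200 UMIs and were not compared.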

How the data were processed

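Cells, counts and labels are the authors'. The authors processed reads with Cell Ranger 3.0.2 on GRCm38 (mm10), kept cells with more than 500 UMIs, and deposited whole-number UMI counts with the library of every cell and its type, which they assigned by correlation with reference profiles. The counts of all 33961 cells summed to the deposited totals. No column was left out as belonging to another sample (0 such columns).

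Members and lists were chosen with earlier results of these data known. The genes named are the 8 members, companion, receptor and marker lists, and the 3 genes most like each member with at least 200 UMIs. Counts were summed per label and library with pandas 2.3.3 and numpy 2.4.6 under Python 3.11.15, intervals were taken from scipy 1.17.1, and figures were drawn with matplotlib 3.10.9. Thinning drew 2000 UMIs per cell without replacement and left out shallower cells; thinning and the calls were tested on simulated data. Median depth per cell ranged from 11399 to 21800.5 UMIs over the libraries, and a library held 158337797 to 315577167 UMIs.

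Transcript classes and the *Col3a1* limit were chosen after the values were seen. Classes were exclusive and set in the order basophil, mast cell, *Foxp3*+ CD3+, gamma delta, CD4+, CD8+, *Il1rl1*+ *Il7r*+, NK and macrophage, with at least 3 listed markers for mast cells, basophils (with *Mcpt8*) and macrophages. A UMI in a cell may come from free RNA or a second cell. No cells were removed as doublets; scrublet in scanpy 1.11.5 scored 622 cells (1.83%) over 0.25, and these were left out in an alternative. The planned treatment comparison was not run because the library names match no sample label. Gene positions are from GENCODE M21.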

Additional observations from a re-analysis of the deposited data

How the results depend on the processing

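No paired analysis was possible because M1, M2, M5 and M6 match no sample and carry no replicate number, and the alternatives of the treatment comparison (another size factor, a replicate block) were not run for the same reason. Levels were recomputed in the leading label of each gene. Leaving out 1 library gave 541.5 to 644 CPM for *Rora*, 98.0 to 120 for *Areg*, 0.235 to 1.045 for *Il5*, 6.92 to 14.0 for *Il13*, 10.6 to 23.8 for *Il17a* and 0 to 2.34 for *Il22*, whose share of NKT cells was 0% to 0.215%. Without the cell with the most UMIs, the levels were 0.162 for *Il5* in ILC, 8.22 for *Il13* in Myeloid, 12.5 for *Il17a*, 0.244 for *Il22* and 99.0 for *Areg*, the last 3 in NKT. Averaging CPM over cells gave 1.91, 28.9 and 132 for *Il5*, *Il13* and *Areg*. Dropping cells of a scrublet score over 0.25 gave 12.7 CPM of *Il13* in Myeloid. Shares followed depth: at 1000 UMIs, *Gata3*, *Rora* and *Areg* were in 14.3%, 42.6% and 7.04% of NKT cells, at 4000 UMIs *Gata3* and *Rora* were in 41.1% and 73.0%, and without thinning the 3 genes were in 42.1%, 71.1% and 13.1%, *Il13* in 2.35% of Myeloid and *Il23r* in 1.28% of NKT. Requiring 2 UMIs left 8.98% for *Gata3*, 30.6% for *Rora*, 4.49% for *Areg*, 0.746% for *Il13* and 0% for *Il23r*. At 1.5-fold, the called genes were 3.52% for ILC over NK cells, 4.725% for NKT over T cell EFF, 2.02% for T cell MEM over T cell EFF and 7.94% for Myeloid over DC. Leaving out cells over 10% mitochondrial UMIs moved none of the 8 levels beyond its counting interval.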

Other observations

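In Myeloid, the 380 cells with *Areg* carried *Cd3e* in 50.8% and *Lyz2* in 92.9%, against 21.1% and 83.3% of the cells without it, at median depths of 21245 and 6803 UMIs. T cell transcripts and depth thus moved with *Areg* in this label, and their part in its level was not tested. *Il1r1*, the IL-1 receptor gene, was in 29 of the 61 ILC cells with *Il17a* (47.5%, against 2.91% of the other ILC cells). The labels Stem cells, T cell Naive, B cells and T cells had fewer than 20 cells in at least 1 library and were left out of the order of labels.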
